A study of Mus musculus with 6 samples.

Results

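The 1813 H3K4me3 peaks described here each came within 1 kb of an annotated end of 2 or more protein-coding genes and were narrower than 2000 bp. They were taken from 27019 H3K4me3 peaks on chromosomes 1 to 19, X and Y, of which they made up 6.71%. They made up 16.1% of the peaks below 2000 bp that lay at any protein-coding gene end. Such a peak is called a 2-gene peak here, and the 9461 peaks of the same width range at an end of exactly 1 protein-coding gene are called 1-gene peaks. The members were chosen by position and width of the H3K4me3 peaks, so the H3K4me3 values are descriptions without a test. Gene strand, promoter sequence and p300 took no part in the choice.

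The data came from CUT&Tag on B16 cells, a mouse melanoma line. In this assay an antibody directs a transposase to cut and tag the DNA it is bound to. H3K4me3 and p300 had 1 library each, both labelled wild type, so Tdg and Trp53 were intact by label and no replicate check exists for any value. The series also describes 4 H3K9me3 libraries, titled wild type, TdgKO, Trp53KO and TdgTrp53DKO, which were not analysed here. The H3K4me3 list had a peak at an end of 7 of 8 pigment cell markers (Mitf, Sox10, Pmel, Dct, Tyr, Tyrp1 and Slc45a2, but not Mlana). It had a peak at 1 of 13 markers of epithelial, leukocyte, endothelial, fibroblast or liver cells. Of all protein-coding genes, 50.5% had a peak at an end. By these counts the list fitted the labelled line. The 1 of 13 was Cd68, whose peak was a 2-gene peak it shared with Mpdu1. Pmel was also at a 2-gene peak, with Rab5b.

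Trimethylation of lysine 4 of histone H3 marks nucleosomes on both sides of active start sites. Mammalian genes are often arranged in divergent pairs, with neighbouring starts on opposite strands and one nucleosome-depleted region that serves both, and housekeeping genes of DNA repair and mitochondria are known for this arrangement. p300, encoded by Ep300, is a histone acetyltransferase that acts as a coactivator at enhancers and promoters.

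The stretch between divergent starts is short enough to be read in 1 window at many pairs. Of 769 pairs of genes arranged head to head at a 2-gene peak, 379 (49.3%) had both listed starts within the 300 bases that run from 250 before to 50 after the start of the plus-strand gene. The windows of 7 such pairs follow, from RefSeq on GRCm38.p6, 5′ to 3′ on the plus strand, with the plus-strand gene first and its start just after base 250. They show Palb2, Nsa2 and Pus7l pairs from among the peaks of highest fold and the Sirt3, Brca1, Psmb9 and Mrpl18 pairs that are described below. Capitals mark matches to any of the 10 motifs searched, which in these windows were CCAAT (the box bound by NF-Y), GGGCGG (the GC box of Sp and KLF factors) and CCGGAAG (an ETS factor site), or their reverse complements.
Dctn5/Palb2: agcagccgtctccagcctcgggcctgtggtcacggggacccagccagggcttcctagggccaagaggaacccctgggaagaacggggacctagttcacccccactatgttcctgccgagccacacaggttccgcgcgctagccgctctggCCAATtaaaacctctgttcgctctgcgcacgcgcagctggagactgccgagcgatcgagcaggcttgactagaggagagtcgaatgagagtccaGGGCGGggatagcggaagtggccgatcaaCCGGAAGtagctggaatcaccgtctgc
Gfm2/Nsa2: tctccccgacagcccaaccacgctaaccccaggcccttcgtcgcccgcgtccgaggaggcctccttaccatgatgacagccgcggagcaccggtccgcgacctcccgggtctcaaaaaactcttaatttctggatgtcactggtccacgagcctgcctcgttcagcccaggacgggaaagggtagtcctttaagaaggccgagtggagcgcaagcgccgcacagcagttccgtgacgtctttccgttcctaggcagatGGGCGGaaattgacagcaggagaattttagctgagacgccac
Psmd13/Sirt3: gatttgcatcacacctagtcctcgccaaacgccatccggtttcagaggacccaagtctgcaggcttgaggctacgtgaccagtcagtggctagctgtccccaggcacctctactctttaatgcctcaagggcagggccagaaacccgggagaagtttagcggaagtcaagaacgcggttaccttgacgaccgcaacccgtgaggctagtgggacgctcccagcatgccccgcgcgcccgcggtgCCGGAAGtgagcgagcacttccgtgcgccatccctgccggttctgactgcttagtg
Nbr1/Brca1: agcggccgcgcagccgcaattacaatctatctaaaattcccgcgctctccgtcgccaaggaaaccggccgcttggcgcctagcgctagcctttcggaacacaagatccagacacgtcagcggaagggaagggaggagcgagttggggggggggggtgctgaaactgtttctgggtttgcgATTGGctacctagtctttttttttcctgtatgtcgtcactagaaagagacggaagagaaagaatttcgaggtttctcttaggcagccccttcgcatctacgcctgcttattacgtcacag
Tap1/Psmb9: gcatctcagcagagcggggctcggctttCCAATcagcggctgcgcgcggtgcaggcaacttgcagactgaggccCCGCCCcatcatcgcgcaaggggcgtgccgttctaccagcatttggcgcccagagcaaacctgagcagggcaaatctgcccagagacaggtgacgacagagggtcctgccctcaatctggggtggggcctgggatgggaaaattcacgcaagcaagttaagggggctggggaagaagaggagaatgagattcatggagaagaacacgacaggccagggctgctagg
Tcp1/Mrpl18: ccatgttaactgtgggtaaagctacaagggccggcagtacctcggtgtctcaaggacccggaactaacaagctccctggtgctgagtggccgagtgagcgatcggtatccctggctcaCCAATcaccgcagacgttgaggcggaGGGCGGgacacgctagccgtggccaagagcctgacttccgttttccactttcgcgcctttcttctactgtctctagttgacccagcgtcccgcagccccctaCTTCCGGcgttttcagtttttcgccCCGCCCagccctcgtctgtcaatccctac
Irak4/Pus7l: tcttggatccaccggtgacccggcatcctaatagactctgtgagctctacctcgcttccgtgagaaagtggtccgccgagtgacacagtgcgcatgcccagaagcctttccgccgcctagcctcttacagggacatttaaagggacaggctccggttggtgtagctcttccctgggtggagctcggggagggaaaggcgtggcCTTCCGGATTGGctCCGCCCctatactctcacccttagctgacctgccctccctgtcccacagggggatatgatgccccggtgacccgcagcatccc
The starts of Palb2 and Nsa2 lay at bases 156 and 240 of their windows, and those of Sirt3 and Brca1 at bases 166 and 99. Those of Psmb9, Mrpl18 and Pus7l lay at bases 25, 13 and 98. The windows covered chr7:122132791-122133090 (Dctn5/Palb2), chr13:97137687-97137986 (Gfm2/Nsa2), chr7:140882144-140882443 (Psmd13/Sirt3), chr11:101551857-101552156 (Nbr1/Brca1), chr17:34187306-34187605 (Tap1/Psmb9), chr17:12916079-12916378 (Tcp1/Mrpl18) and chr15:94543410-94543709 (Irak4/Pus7l). CCAAT was found in 5 of the 7 windows, GGGCGG in 5 and CCGGAAG in 4. These windows were picked after their letters had been seen, so the matches illustrate the motifs and support no count.

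Among peaks of exactly 2 genes with both strands listed, most lay at genes that start away from each other. Strand came from the RefSeq promoter table, which lists it for 17492 of 21887 protein-coding genes. Among the 1318 peaks of exactly 2 genes with both strands listed, 891 (67.6%, 95% interval 65.0 to 70.1) were head to head, meaning opposite strands with the 5′ end of each gene nearest the peak's summit. Another 329 (25.0%) lay where a gene starts behind the 3′ end of its neighbour on the same strand. The start of a gene at the 3′ end of an opposite gene accounted for 39 peaks, facing 3′ ends for 31, a pair of starts on the same strand for 26 and a pair of 3′ ends on the same strand for 2. The other members were 441 peaks with an unlisted strand and 54 peaks that reached 3 or more genes. So the name of candidate 2-way promoters held by strand for these 891 peaks and not for the other 427 with both strands listed. Intervals on shares throughout are exact (Clopper-Pearson) binomial ones that treat peaks as independent, and they cover counting error only.

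**Figure D1:**
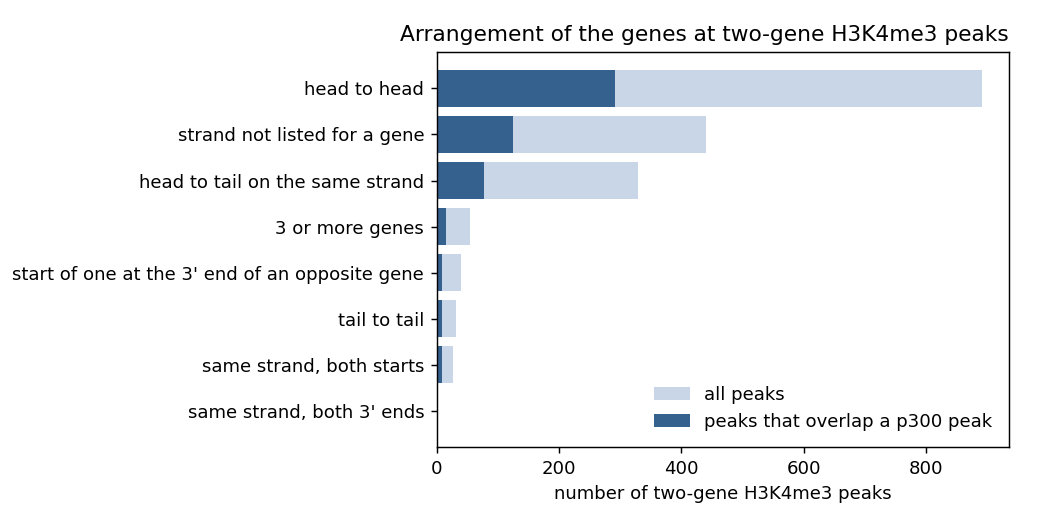
Number of 2-gene H3K4me3 peaks (horizontal axis) in each arrangement of their genes, with the peaks that overlap a p300 peak as the dark part of each bar. Head-to-head peaks are the most numerous with 891, of which 292 overlap p300.

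H3K4me3 was described by fold, the authors' enrichment of the summit over background, and by the number of reads at the summit recovered from it. Over all 2-gene peaks the median width was 1151 bp (quartiles 786 and 1468), the median fold 6.78 (5.05 and 8.43) and the median summit count 142 reads (101 and 187). The 7259 1-gene peaks at the start of their gene had a median width of 944 bp, a fold of 6.87 and 114 reads. A wider peak reaches more gene ends, so the rule itself favours width. Head-to-head peaks had a median width of 1219 bp and a fold of 7.21, while peaks at facing 3′ ends had 694 bp and 4.80.

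The 1813 peaks reached 3137 genes in 1619 sets of genes, of which 1427 had 1 peak, 190 had 2 and 2 had 3. The second gene's end lay inside the peak in 910 cases, up to 250 bp away in 267, over 250 and up to 500 bp away in 209 and over 500 and up to 1000 bp away in 427. A further 672 peaks had it over 1000 and up to 2000 bp away and were left out. Just inside the distance limit were Ankrd12/Ndufv2 (1000 bp, fold 7.24), Washc2/Zfand4 (999 bp, 7.30) and Msmb/Ncoa4 (998 bp, 9.89). Just outside it were Dpp9/Tnfaip8l1 (1005 bp, 2.62), Nxf1/Stx5a (1008 bp, 6.54) and Ermap/Zfp691 (1011 bp, 10.3). At the width limit, Usp32/1700125H20Rik (1998 bp), Fbxl19/Orai3 (1996 bp) and Tsacc/Cct3 (1994 bp) were inside, and Caskin2/Tsen54 (2000 bp), Ints5/Ganab (2001 bp) and Aurka/Cstf1 (2003 bp) were outside. The width limit left out 134 peaks.

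The strongest and weakest members differed in fold by a wide margin. The highest fold was 14.5 at Palb2/Dctn5 (chr7:122132489-122133452, 233 summit reads). Palb2 partners BRCA2 in homologous recombination and Dctn5 is a dynactin subunit. Next came Prnp/Prn (13.6), where Prnp encodes the prion protein and both genes start there on the same strand, so the pair is not divergent. It was followed by Nsa2/Gfm2 (13.3), with a ribosome biogenesis factor and a mitochondrial elongation factor, and Uqcrb/Gm10767/Mterf3 (13.2), with a subunit of respiratory complex III. Abce1/Anapc10 (13.1), Pus7l/Irak4 (13.0), Zfp942/Zfp943 (13.0), Ppwd1/Cenpk (12.9), Cebpz/Ndufaf7 (12.8) and Hormad1/Golph3l (12.7) completed the highest 10. Of these 10, p300 overlapped Pus7l/Irak4 (p300 fold 5.36) and Hormad1/Golph3l (5.99), where 29.5% of all 2-gene peaks overlapped p300. The lowest folds were 1.90 at Rhof/Setd1b, 2.02 at Wdr24/Jmjd8 and 2.09 at Ewsr1/Rhbdd3, all without p300.

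The peak that reached the most genes lay on chr17:47687321-47689174 and came near 5 of them, Gm20517, Usp49, Tomm6, Frs3 and Prickle4, with a fold of 7.60. Peaks near 3 genes included Cmc4/Mtcp1/Brcc3 on chromosome X (11.7), Gm45935/Setdb2/Cab39l (11.2), Wdr27/1600012H06Rik/Phf10 (9.86), Sdhd/Timm8b/Nkapd1 (9.09), where Sdhd is a subunit of respiratory complex II, and Rad17/Taf9/Ak6 (8.68), where Rad17 loads a DNA damage checkpoint clamp. Trappc13/Shld3/Trim23 (9.41), Gm38529/Vamp3/Camta1 (9.10) and Alkbh1/Nrp/Slirp (8.61) were of the same kind. p300 overlapped the Rad17, Trappc13 and Vamp3 peaks and none of the other peaks named here, where 27.8% of all 54 peaks near 3 or more genes overlapped p300.

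Of 19 gene pairs known from other work as neighbours or divergent pairs, 15 shared a 2-gene peak. Pairs picked for neighbouring ends are favoured by the rule of the set, so this count describes the list only. Hspd1 and Hspe1, which encode the mitochondrial chaperonin and its cofactor, had 2 peaks of 1050 and 303 bp with folds of 3.80 and 3.39, and a single p300 peak (fold 4.53) touched both. Atm, the double-strand break kinase, and Npat, a histone gene activator, shared a peak of 1437 bp with a fold of 8.19 and p300 at 6.59, and a second peak of 359 bp with a fold of 2.56 and no p300. Mcm4, of the replicative helicase, and Prkdc, the end-joining kinase, had an H3K4me3 fold of 9.59 and a p300 fold of 9.18. The purine synthesis genes Ppat and Paics shared a peak of fold 7.53 with p300 at 7.45, and Gart, of the same pathway, shared one of 6.79 with Son, an RNA-binding protein, with p300 at 5.97.

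Brca1, of homologous recombination, and Nbr1, an autophagy receptor, shared a peak of 1825 bp with a fold of 6.98 and p300 at 7.64. The sirtuin and proteasome pair Sirt3/Psmd13 (9.93, p300 6.25), the mitochondrial ribosome and chaperonin pair Mrpl18/Tcp1 (9.88, p300 6.52) and Pcna/Cds2 (7.86, p300 9.14), where Pcna encodes the replication clamp, were alike in carrying p300. No p300 peak overlapped Psmb9/Tap1 (9.50), which encode an immunoproteasome subunit and a peptide transporter, Hars/Hars2 (9.73), Mrps12/Sars2 (8.25), Surf1/Surf2 (4.57) or the collagen pair Col4a1/Col4a2 (3.99). Acat2, set with Tcp1 among the 19 pairs, had a 1-gene peak of its own (9.21, p300 7.81).

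The genes of the series fell outside the set. Trp53 and Wrap53 shared a head-to-head peak with a fold of 3.77 and a p300 peak of 4.56, but its width of 2817 bp was over the limit. Tdg had a 1-gene peak (8.51) without p300, and so did Ep300 (2 peaks, 4.38 and 6.19). The p53 relative Trp73 was a member with Wrap73, at a fold of 3.84 on 61 summit reads and without p300, and theirs was the longest distance between starts (2479 bp).

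Starts of head-to-head genes lay close together. By the outermost annotated 5′ ends, the median distance from the minus-strand start to the plus-strand start was 36 bp over 769 pairs (quartiles -148 and 130), where a value at or below 0 means that the genes overlap. By these ends 289 pairs (37.6%) overlapped, 251 (32.6%) were 1 to 100 bp apart and 400 (52.0%) 1 to 300 bp apart. The overlap depended on which start was used. With the starts of the promoter table, for the 685 pairs whose starts both lay within 1 kb of the peak, the median was 114 bp (34 and 267), 129 pairs (18.8%) overlapped and 407 (59.4%) were 1 to 300 bp apart. Mrpl18/Tcp1 shows the difference, with -1458 bp by the outermost ends although its table starts both lie in the window printed above. Tti1/Rprd1b and Usp35/Kctd21 started on the same base (0 bp), and Smpd2/Ppil6, Capza1/St7l, Ears2/Ubfd1 and Tcta/Rhoa on neighbouring bases (1 bp). At the other end were Trp73/Wrap73, Scaf1/Rras (1538 bp) and Nisch/Tnnc1 (1486 bp).

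Distances of summits were taken by the outermost annotated 5′ ends alone, which can differ from the promoter table starts as given above. They were not recomputed with the table starts. The summit of H3K4me3 lay a median of 204 bp (quartiles 79.8 and 469) from the midpoint of the 2 outermost starts. At the 648 pairs with a single peak this was 135 bp, and at the pairs with 2 or more peaks it was 566 bp. Of 769 pairs, 121 (15.7%) had 2 or more peaks, against 18.5% of the 6113 genes at 1-gene starts, a difference of -2.80 points (Newcombe 95% interval -5.40 to 0.105) that included 0. The counting rules were unlike. Each peak of a pair had to come within 1 kb of both genes, and a further peak near only 1 of them was not counted. So these shares do not decide whether pairs have 2 peaks more or less often. Of the 120 pairs with exactly 2 peaks, the midpoint of the starts lay between the peaks at 49 (40.8%), and the peaks were a median of 405 bp apart. The 288 p300 summits at head-to-head peaks lay a median of 201 bp from the midpoint, and 61.8% (55.9 to 67.4) were within 250 bp of it.

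**Figure D2:**
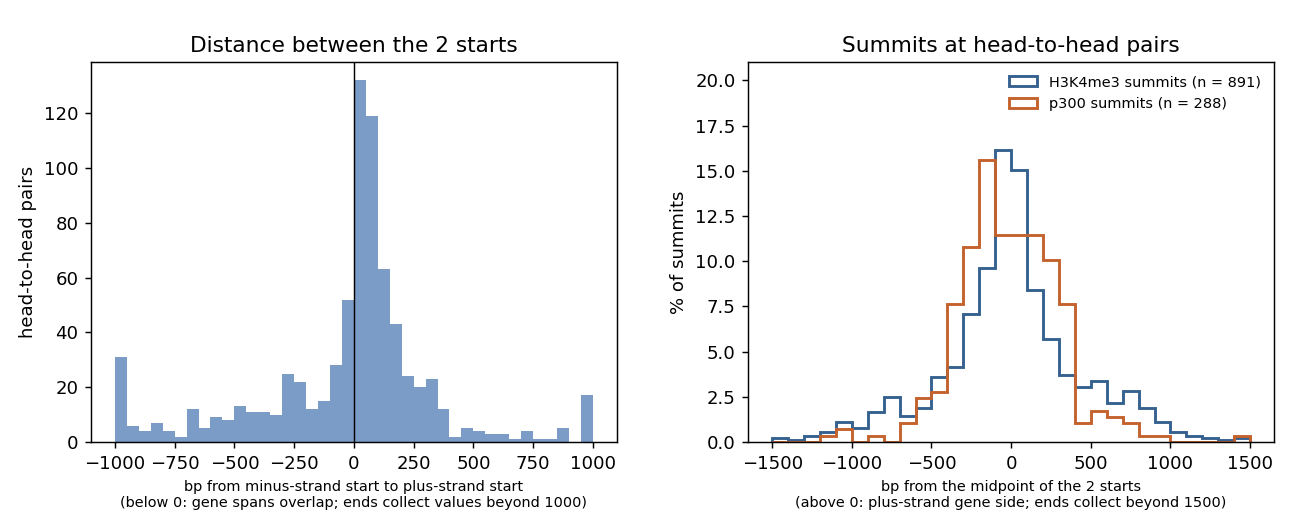
Left, number of head-to-head pairs (vertical axis) by the distance in bp from the minus-strand to the plus-strand start, by outermost annotated ends. Right, percent of H3K4me3 summits and of p300 summits by distance in bp from the midpoint of the same outermost starts. The distances peak just above 0 (median 36 bp), and both kinds of summit centre on the midpoint with medians of 204 and 201 bp.

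p300 overlapped 2-gene peaks more often than 1-gene peaks, and the difference was smaller between peaks of like width and summit reads. Sharing at least 1 bp with a p300 peak counted as overlap. By this rule 534 of 1813 2-gene peaks (29.5%, 27.4 to 31.6) overlapped p300, against 20.2% of all H3K4me3 peaks below 2000 bp, 18.6% of 1-gene peaks (1761 of 9461) and 19.2% of 1-gene peaks at a start (1396 of 7259). The difference from 1-gene peaks was 10.8 points (8.64 to 13.1), and from 1-gene starts 10.2 points (7.97 to 12.5). When the 1-gene start peaks were weighted to the same classes of width as the 2-gene peaks, the difference was 6.23 points (3.88 to 8.58). Weighted to classes of summit reads it was 4.56 points (2.19 to 6.93), and to classes of both together 2.94 points (0.542 to 5.33). Weighting to classes of fold left it at 10.4 points (8.07 to 12.6). The weighting by summit reads was added after the first values had been seen. Classes are coarse, so differences of width and reads within a class remained.

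Head-to-head peaks overlapped p300 in 292 of 891 cases (32.8%, 29.7 to 36.0), 13.5 points (10.4 to 16.8) above 1-gene starts. Weighted to classes of width and summit reads together, that difference was 3.66 points (0.317 to 7.01). Head-to-tail peaks overlapped p300 in 78 of 329 cases (23.7%, 19.2 to 28.7), 9.06 points (3.33 to 14.4) below head-to-head peaks, whose median width was larger (1219 against 1102 bp). In the 5 classes of width the shares at head-to-head peaks were 5.26, 15.7, 18.5, 37.5 and 49.6%, from narrow to wide, against 4.47, 8.89, 16.9, 25.7 and 40.0% at 1-gene starts. Intervals of the difference included 0 in the classes below 500 bp and from 750 to under 1000 bp. In the 5 classes of summit reads, from few to many, the head-to-head shares were 0, 8.51, 4.39, 20.7 and 47.2%. Those at 1-gene starts were 1.49, 2.18, 7.08, 17.5 and 37.9%. Intervals of this difference included 0 in read classes 1, 3 and 4, and class 1 held 6 head-to-head peaks. Among all 2-gene peaks, those with p300 were wider (median 1354 against 1041 bp) and had more summit reads (186 against 127) than those without.

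**Figure D3:**
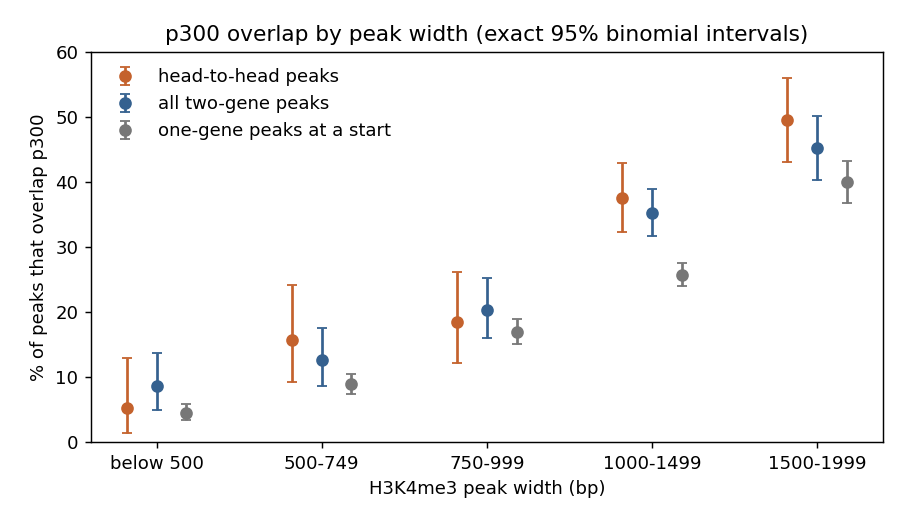
Percent of H3K4me3 peaks that overlap a p300 peak (vertical axis) in 5 classes of H3K4me3 peak width in bp, with exact 95% binomial intervals, for head-to-head, all 2-gene and 1-gene start peaks. Shares rise with width in all 3 sets, from 4.47 to 40.0% at 1-gene starts and from 5.26 to 49.6% at head-to-head peaks.

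The overlapping p300 peaks had a median fold of 5.82 (quartiles 4.92 and 6.86) at 2-gene peaks and 5.83 (5.01 and 6.83) at 1-gene starts. High p300 folds at 2-gene peaks included those at Mphosph10/Mcee (11.7), Bbip1/Shoc2 (11.2), Mkks/Slx4ip (11.1), Slc5a6/Atraid (11.0), Zfp91/Lpxn (10.7), Wdr78/Mier1 (10.6), AB124611/Carm1 (10.5), where Carm1 is an arginine methyltransferase that acts with p300 in transcription, Bfsp1/Dstn (10.4) and Ttc9c/Hnrnpul2 (10.4). Bbip1 and Mkks both encode factors of the ciliary BBSome and its assembly. Head-to-head pairs were put in classes of distance by the outermost annotated ends alone. By promoter table starts fewer pairs overlapped, as given above, and the classes were not remade with those starts. Counted by pair, p300 lay at 38.3% of the 133 pairs that overlapped by more than 300 bp and at 28.8% of 156 that overlapped by up to 300 bp. It lay at 32.3% of 251 that were 1 to 100 bp apart and at 45.0% of 149 that were over 100 and up to 300 bp apart. Of the 80 pairs that were farther apart, p300 lay at 52.5% (41.0 to 63.8). The widest peak of a pair had a median of 1269 bp in the class of 1 to 100 bp and 1358 bp in the last, and the part of width in these shares was not tested.

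How often a gene had a 2-gene peak varied between gene lists. Of all 11045 protein-coding genes with H3K4me3 at an end, 28.4% had a 2-gene peak, and of all 21887 genes 14.3%. Among genes with H3K4me3, the share was 71.4% for replication-dependent histones (25 of 35), 48.0% for the respiratory chain (36 of 75), 45.9% for mitochondrial ribosomal proteins (34 of 74), 45.1% for DNA repair (41 of 91), 41.2% for aminoacyl-tRNA synthetases (14 of 34) and 38.2% for chaperones (13 of 34). It was 31.1% for DNA replication (14 of 45), 30.0% for purine and pyrimidine synthesis (6 of 20), 28.6% for p53 targets (8 of 28), 27.3% for the proteasome (12 of 44) and 27.0% for cytosolic ribosomal proteins (20 of 74), all near that of all marked genes. It was 14.9% for zinc finger genes named Zfp (45 of 303) and 10.0% for pigment cell genes (2 of 20). None of 1106 olfactory receptor genes had any H3K4me3 peak at an end. The lists were chosen with earlier results known, no test was run on them, and neighbouring members of a list can share a peak.

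**Figure D4:**
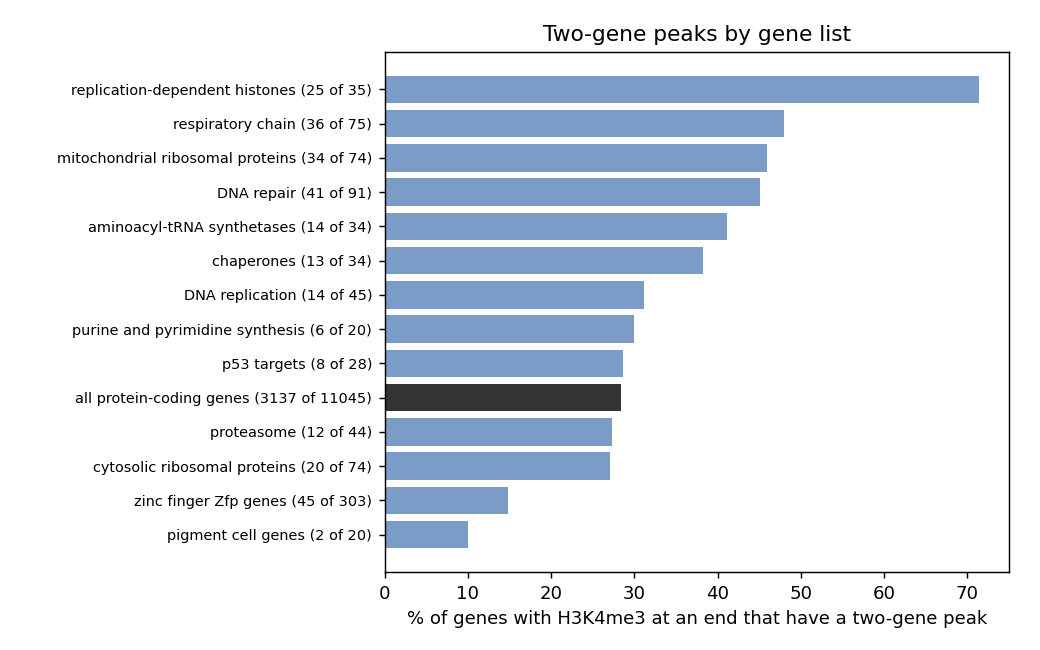
Percent of the genes with H3K4me3 at an end that have a 2-gene peak (horizontal axis) for 13 gene lists, with the counts in the labels, and for all protein-coding genes in black at 28.4%. Histone genes are at 71.4%, respiratory chain, mitochondrial ribosome and DNA repair genes between 45.1 and 48.0%, and pigment cell genes at 10.0%.

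In DNA repair the highest folds after Palb2/Dctn5 were at Pms1/Ormdl1 (11.5), where Pms1 belongs to the mismatch repair family, Xrcc4/Tmem167 (11.2), where Xrcc4 holds the end-joining ligase, and Rffl/Rad51d (11.1), where Rad51d is a recombinase paralogue. Of the 47 peaks at DNA repair genes 20 overlapped p300, where 29.5% of all 2-gene peaks did. No set held 2 genes of that list. In replication the highest folds were at Rpa3/Umad1 (10.3), with a subunit of the single-strand binding protein, Pole3/4933430I17Rik (9.75), with a polymerase epsilon subunit, Mcm4/Prkdc and Zswim9/Lig1 (9.47), with the ligase of lagging strands.

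Mitochondrial genes were among the lists with the highest shares. Respiratory chain peaks included Wdr4/Ndufv3 (11.9, with 406 summit reads, p300 5.95), Atp5e/Prelid3b (11.5) and Ndufa8/Morn5 (10.9), and 6 of 39 overlapped p300, where 29.5% of all 2-gene peaks did. Mitochondrial ribosome peaks included Helq/Mrps18c (11.1), where Helq is a repair helicase, Mrpl32/Psma2 (11.1), where Psma2 is a proteasome subunit, Mrpl50/Zfp189 (11.0) and Mitd1/Mrpl30 (10.3), and 7 of 38 overlapped p300. One set, Mrpl46/Mrps11, joined a subunit of the large mitochondrial ribosome to a subunit of the small one. Median folds were 8.36 for the respiratory chain peaks and 6.77 for the mitochondrial ribosome peaks. Among synthetases, Lyrm4/Fars2 (10.5) and Orc3/Rars2 (8.62) paired mitochondrial enzymes with a factor of iron-sulfur cluster assembly and an origin recognition subunit, and Adat1/Kars (9.53) paired a tRNA deaminase with the lysine enzyme.

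Among protein quality control genes, Cct6a, a chaperonin subunit, was in 2 sets, Cct6a/Sumf2 (11.0) and Psph/Cct6a (9.64). Hspa14/Cdnf (10.2) and Ftsj3/Psmc5 (9.15) overlapped p300. Nucleotide synthesis added Slc33a1/Gmps (8.50) and Atraid/Cad (7.07), both without p300. Cytosolic ribosomal peaks were led by Rpl15/Nkiras1 (8.98), Trappc4/Rps25 (8.44), Rps28/Ndufa7 (8.41) and Rps27a/Clhc1 (8.10). Among p53 targets were Polk/Cert1 (9.28), with a translesion polymerase, Gatc/Triap1 (8.30), with an inhibitor of apoptosis, Ttc38/Gtse1 (7.56) and Xpc/Lsm3 (7.22), with the sensor of nucleotide excision repair.

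Histone and zinc finger genes were the lists whose sets often came from gene clusters. Of 13 peaks at replication-dependent histone genes 10 overlapped p300, where 29.5% of all 2-gene peaks did. Among them were H2ac18/H3c14 (5.85, p300 5.51), H3c15/H2ac19 (5.52, p300 4.90) and H2ac8/H2bc8 (5.31, p300 3.45), while H2bc9/H3c7 (5.50) had none. The 25 histone genes made up 12 sets of 2 or more histone genes, and 6 of the 25 were at a head-to-head peak. Sets with an unlisted strand, such as H2bc9/H3c7, or of 3 or more genes, such as H2ac21/H2ac20/H2bc21, could not be counted as head to head. Zfp genes had 8 sets of 2 Zfp genes each, among them Zfp942/Zfp943 and Zfp944/Zfp758 (10.7), whose starts lay 2 bp apart. The pair of pigment cell genes were Pmel, for the melanosome matrix protein, with Rab5b (4.82), and Mc1r, for the melanocortin receptor, with Tubb3 (2.37). The strand of a gene of the Pmel and Rab5b pair was not listed, so its arrangement is unknown. Mc1r and Tubb3 were head to tail on the same strand. Neither peak overlapped p300.

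Few 2-gene peaks, head to head or not, also lay at a noncoding gene. An annotated end of a lncRNA gene lay within 1 kb of 19 of 891 head-to-head peaks (2.13%, 1.29 to 3.31). The same held for 82 of all 2-gene peaks (4.52%, 3.61 to 5.58) and for 1067 of 7259 1-gene start peaks (14.7%, 13.9 to 15.5).

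Promoters of head-to-head genes held more CpG dinucleotides and more ETS sites than those of 1-gene starts. The 300-base promoter was used for 1450 genes at head-to-head peaks and 5635 at 1-gene starts, each with its start within 1 kb of the peak. The ratio of observed to expected CpG had a median of 0.850 (quartiles 0.720 and 0.973) against 0.782 (0.623 and 0.919), and 0.577 over all 17492 promoters. GC content was close, with medians of 62.8 and 61.7%. The ETS site CCGGAAG, on either strand, was in 28.6% (Newcombe interval of the difference 7.85 to 12.9 points) of head-to-head promoters against 18.3% at 1-gene starts and 11.9% of all promoters, a difference of 10.3 points. The share was higher at head-to-head promoters in each of 5 classes of GC content, but by little below 60% GC. It was 19.4 against 17.6% below 55% GC and 23.3 against 21.7% from 55 to 60%. The gap was largest from 60 to 65% GC (36.9 against 21.2%) and from 65 to 70% (35.8 against 18.0%). At 70% GC and over the shares were 23.1 against 12.8%. Promoters of a pair overlap, and with 1 gene per pair the share was 27.6%, 9.30 points (6.08 to 12.7) above 1-gene starts. Taking 1 gene per pair removes double counting only. At 379 of 769 head-to-head pairs (49.3%) the window of the plus-strand gene held the listed starts of both genes. How far this bears on the differences from 1-gene starts was not tested, for CpG or for any motif.

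Of the other 9 motifs, TCTCGCGA (bound by BANP) was in 68 of 1450 (4.69%) against 124 of 5635 (difference 2.49 points, 1.43 to 3.75; all promoters 1.53%) and ACTACAA (bound by ZNF143 and THAP11) in 6.34% against 4.38% (1.96 points, 0.686 to 3.42; all promoters 3.82%). The TATA box TATAAA was in 4.41% against 6.44% (-2.03 points, -3.18 to -0.696; all promoters 13.3%) and the M-box core CATGTG, a site of MITF, in 6.07% against 7.83% (-1.76 points, -3.09 to -0.250; all promoters 11.5%). With 1 gene per pair the M-box difference was -1.42 points (-3.11 to 0.653), an interval that included 0. For the GC box GGGCGG (68.2%; all promoters 46.3%), CCAAT (40.2%; 39.2%), the E-box CACGTG (10.9%; 7.91%), the cyclic AMP element TGACGTCA (3.52%; 2.33%) and the palindromic NRF1 site (2.97%; 1.33%), the interval of the difference from 1-gene starts included 0. In all, 10 motifs were searched in both directions, none of these letters contains another of the 10 whole, and the intervals are not widened for the number searched. A match is a run of letters and not a bound site.

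**Figure D5:**
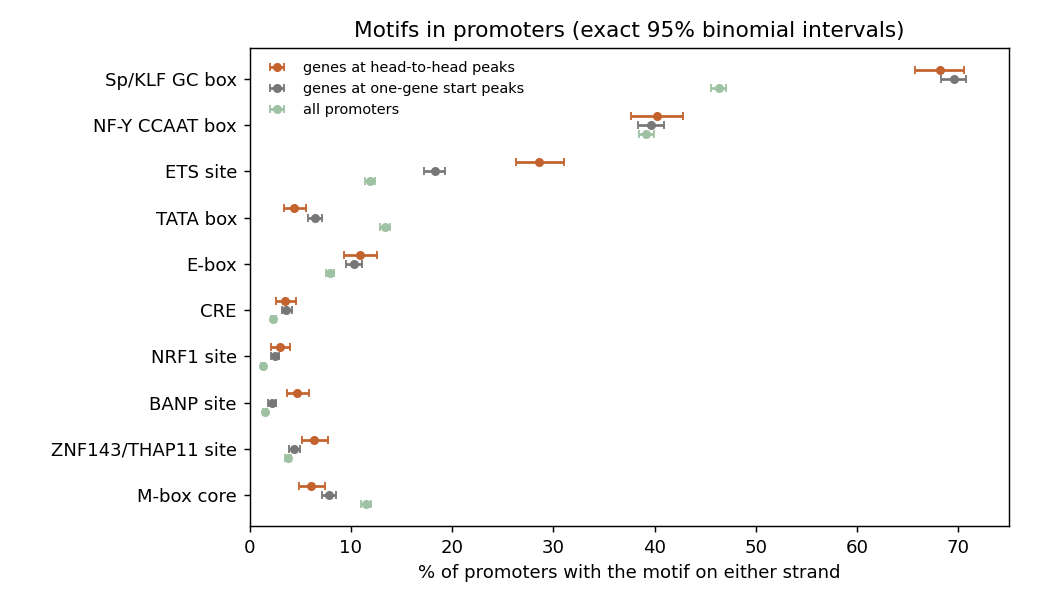
Percent of 300-base promoters that hold each of 10 motifs on either strand (horizontal axis), with exact 95% binomial intervals, for genes at head-to-head peaks, genes at 1-gene start peaks and all promoters. The ETS site stands apart at 28.6% for head-to-head genes against 18.3% for 1-gene starts, while CCAAT is at 40.2% against 39.7%.

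Within the head-to-head genes, CCAAT was more frequent at peaks with p300 than at peaks without. CCAAT was in 47.6% of the 536 promoters at a peak with p300 and in 35.9% of the 914 without, a difference of 11.7 points (6.43 to 16.9). The E-box was in 14.7% against 8.64% (6.10 points, 2.70 to 9.74), the GC box in 72.4% against 65.8% (6.63 points, 1.68 to 11.4) and ACTACAA in 8.02% against 5.36% (2.66 points, 0.0554 to 5.57). The ETS site was in 26.1% against 30.1% (-3.97 points, -8.64 to 0.866), an interval that included 0. Peaks with p300 were wider, as given above, and CCAAT was more frequent with p300 in 4 of the 4 width classes that held both kinds, with 55.3 against 38.7% among peaks of 1500 to under 2000 bp and 39.9 against 36.6% among those of 1000 to under 1500 bp. The windows of Brca1, Mrpl18 and Pus7l printed above hold CCAAT at a peak with p300, and those of Palb2 and Psmb9 hold it at a peak without. The split by p300 was made after the shares of all motifs had been seen. Genes of a pair share the p300 status of their peaks, and their promoters can overlap. The intervals of this split treat such promoters as independent and may be too narrow. A count with 1 gene per pair was not made for it.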

How the data were processed

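CUT&Tag libraries of wild-type B16 cells, 1 for H3K4me3 and 1 for p300, were analysed from the authors' deposited peak lists. Per the labels' protocols each used 1 µg of antibody, 18 PCR cycles and 150 bp paired reads. Per the submitters' processing notes, the tools were Bowtie2 2.2.5 and Picard 2.22.4, with Trim Galore and deepTools, and the build mm10. The peak caller was not given in the sources used here, nor were its threshold, a control library or any pooling. Each peak of the deposited lists has a position, a fold enrichment ratio, −log10 p and −log10 q values and a score that follows −log10 q. Read totals are unknown.

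Of 27043 deposited H3K4me3 peaks, 27019 on chromosomes 1 to 19, X and Y were kept. Peaks were joined to RefSeq protein-coding genes of GRCm38.p6 and, for strand and sequence, to the RefSeq promoter table, which covers 17492 of 21887 genes. A gene's ends are its outermost annotated ones. Summit reads are the whole number that gave both the deposited fold and −log10 p, with 1 added to the summit and background in the fold; 100% of the 2-gene peaks, 26996 H3K4me3 peaks and 99.7% of p300 peaks came out whole within 0.002 on the −log10 p scale. This was tested on simulated data. Differences of shares carry Newcombe intervals, and weighted differences carry normal intervals with the weights taken as fixed. With 1 library per antibody no p-value was computed. Python 3.11.15, numpy 2.4.6, pandas 2.3.3, scipy 1.17.1 and matplotlib 3.10.9 were used.

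Members, gene lists and comparisons were chosen with earlier results of these data known. Chosen after values had been seen were the use of 1-gene starts and of summit reads, the classes of GC content and of distance between starts, the lncRNA counts, the correction of the histone list to all 5 histone families, the limit of motif counts to promoters starting within 1 kb of the peak, and the printed windows, which were narrowed to 7 from a longer list. The genes named were Tdg, Trp53, Ep300, 19 pairs known from other work, the highest and lowest folds, the highest p300 folds, peaks with most genes, up to 4 peaks per gene list, the values at each limit, and the extreme distances between starts; a few genes that this rule names are not reported here. Alternatives were other windows, no width limit, stricter folds, other overlap rules, autosomes alone, predicted genes left out, other weights and other starts.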

Additional observations from a re-analysis of the deposited data

How the results depend on the processing

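No paired analysis was possible because each antibody had 1 library. Across 61 recomputed values, 44 stayed within their interval or, for the count, within 1.5 times, and 17 moved outside it. No difference changed sign, but most of the values were counts or shares, which cannot. The motif shares were recomputed on a part or an extension of the same promoters, so they are not independent checks. Head-to-head shares below are of peaks of exactly 2 genes with both strands listed. With a window of 500 bp, 33.0% of 2-gene peaks overlapped p300 and 73.7% were head to head. With 2 kb these were 26.4 and 57.6%, and the p300 difference from 1-gene peaks was 8.57 points. With a fold at or above the list median, 1050 peaks were left, 34.4% with p300 and 73.8% head to head. With p300 peaks at or above their own median fold, the share was 15.3% and the difference 5.84 points. Without pairs of overlapping spans, 62.3% were head to head. Weighted by width, by summit reads and by both, the p300 difference was 6.23, 4.56 and 2.94 points, the last pair added later. With each set of genes counted once, 32.4% had p300. With promoter table starts, 18.8% of pairs overlapped. The histone list first held H3 and H4 genes alone by mistake, of which 50.0% (8 of 16) had a 2-gene peak. The motif counts were first made on promoters with a start at any distance, which gave an ETS difference of 9.81 points and a CCAAT difference with p300 of 11.0 points. Causes of these moves were not tested. The later settings were chosen after seeing the data. The lists do not show sites too weak to be called, and the p300 list has fewer peaks and lower summit counts (median 39 reads against 80.0 for H3K4me3), so the absence of p300 means that none was detectable at this depth.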
